A study of Homo sapiens with 10 samples.

Results

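The genes described here are 47 transcription factor genes of embryonic development that lie outside the HOX clusters and are known targets of Polycomb repression. They were taken by symbol from the 57445 gene identifiers of the count tables, and each matched 1 identifier. They comprise 6 SOX genes, 3 GATA genes, 3 PAX genes, 6 forkhead genes, 3 T-box genes, 16 homeodomain genes, 3 zinc finger genes and 7 genes of other families (HAND2, NR2F1, NR2F2, EBF1, TFAP2A, TFAP2C and RUNX1). Their RNA was counted in PC3, a human prostate cancer cell line grown out of a bone metastasis, by stranded RNA-seq of 10 libraries in 5 groups of 2. The groups are PC3 cells stably expressing the hairpin RNF2 shRNA1, cells stably expressing the hairpin labelled RNF2 shRNA2, cells treated with PRT4165 for 48 hours, cells treated with GW-516 for 48 hours, and cells stably expressing a Scramble hairpin. All were grown in DMEM/F-12 medium with serum. RNF2 is a RING subunit of Polycomb repressive complex 1, PRT4165 is known as an inhibitor of the ubiquitin ligase activity of that complex, and GW-516 is known here only by its code name. The labels give no dose, no vehicle group and no hairpin for the compound-treated cells, so differences between a compound and Scramble cannot be told apart from effects of vehicle, hairpin vector or separate culture. Hairpin lines are not described as clones or pools.

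Polycomb repressive complex 1 places ubiquitin on histone H2A, and Polycomb repressive complex 2 methylates lysine on histone H3. Together they hold many developmental regulators silent, typically at promoters rich in CpG dinucleotides, until a lineage needs them. Which of these genes escape the silencing differs between tissues, and epithelial cancers commonly keep some of them on. No chromatin mark was measured here, so whether each gene carried Polycomb marks in these cells is not known from these data.

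Library totals ran from 65877850 to 108380198 counts, and levels are given as CPM after TMM normalization. Both replicate libraries of the Scramble, RNF2 shRNA1 and GW-516 groups were nearly as alike as repeat counts of 1 library, with chi-square per degree of freedom of 1.08 to 1.10 after halving for the 2 counted ends. The other pairs gave 6.11 for the libraries labelled RNF2 shRNA2 and 3.44 for PRT4165. Nothing in the labels says that replicates came from separate cultures, so p-values measure only the spread between these libraries, which may be technical. That spread was pooled for each gene over all 10 libraries, the near-identical pairs included. The p-values of comparisons with the libraries labelled RNF2 shRNA2 or with PRT4165 may therefore be too small. RNF2 itself stood at 12.1 and 11.96 CPM in RNF2 shRNA1 cells, 33.5 and 35.3 CPM in the libraries labelled RNF2 shRNA2, 29.1 and 29.1 CPM with PRT4165, 26.9 and 28.1 CPM with GW-516, against 30.6 and 28.3 CPM in Scramble cells. It fell in RNF2 shRNA1 cells (log2 -1.29, SE 0.059, adjusted p = 2.3e-15 by edgeR) and was higher in the libraries labelled RNF2 shRNA2 (log2 0.23, SE 0.052, adjusted p = 0.001 by edgeR), which therefore go against their label. In those libraries BMI1, another subunit of the same complex, fell (53 and 61.6 CPM in the libraries labelled RNF2 shRNA2, against 251 and 255 CPM in Scramble cells, log2 -2.14, SE 0.054, adjusted p = 9.8e-12 by edgeR). Per the file headers they carry a short name of another form than the sh1 of RNF2 shRNA1, and all headers carry the prefix MDV3, which the labels do not explain. Replicate 2 of the libraries labelled RNF2 shRNA2, the deepest library at 108380198 counts, alone has L005only in its header. The labels do not explain that either. Likewise Th4 stands in the headers where the labels say GW-516, with no explanation, so what these libraries hold rests on their labels alone. KRT8, KRT18, KRT19, VIM and CD44 were expressed in every library, and KLK3, TMPRSS2, CHGA, SYP and INSM1, markers of luminal or neuroendocrine prostate cells, were too low to be tested. Of 10 markers of blood, endothelial and stromal cells 9 matched an identifier, and their summed level was 1.12 to 1.29 CPM in RNF2 shRNA1 cells, 0.8396 to 1.03 CPM in the libraries labelled RNF2 shRNA2, 0.593 to 0.606 CPM with PRT4165 and 1.07 to 1.52 CPM with GW-516, against 0.547 to 0.6699 CPM in Scramble cells. Of the 5 that were tested, PDGFRB was called higher than in Scramble cells in RNF2 shRNA1 cells and with GW-516, VWF in the libraries labelled RNF2 shRNA2 and with both compounds, and DCN in the libraries labelled RNF2 shRNA2 and with GW-516. VWF was at most at 0.159 CPM and DCN at most at 0.243 CPM in any library. None was called lower than in Scramble cells, and CD3E had no count in any library. The part of these markers in the results was not tested.

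Promoter sequence was available for 37 of the 47 genes in RefSeq (GRCh38.p14, 250 bases before to 50 bases after the gene's start). Their median CpG content, observed over expected, was 0.80, against 0.76 over 15842 protein-coding promoters. For the 5 silent members with a sequence the median was 0.97, for the 3 low members 0.81, and for the 29 expressed members 0.77. CCAAT, searched as those letters on both strands, was in 23 of the 37 promoters (62.2%), against 36.4% of all promoters. GGGCGG was in 24 (64.9%), against 58.5%. TATAAA was in 2 (5.41%), those of SOX21 and TFAP2A, against 9.63%, and CACGTG was in 2 (5.41%), those of DLX2 and NR2F2, against 8.88%. GGGCGG and CACGTG each hold a CpG, the 4 motifs were counted independently of each other, and matches are letters in a window, not sites. The promoters of 6 genes are shown as examples. SOX21 (chr13:94712496-94712795, minus strand) and TFAP2A (chr6:10419610-10419909, minus strand) were higher than in Scramble cells in each of the other groups, and NR2F1 (chr5:93582972-93583271, plus strand) and EBF1 (chr5:159097907-159098206, minus strand) were lower. NKX2-2 (chr20:21522640-21522939, minus strand) and HAND2 (chr4:173530180-173530479, minus strand) had no count in any library. Each is written 5′ to 3′ on the gene's strand with CpG dinucleotides in capitals.
SOX21: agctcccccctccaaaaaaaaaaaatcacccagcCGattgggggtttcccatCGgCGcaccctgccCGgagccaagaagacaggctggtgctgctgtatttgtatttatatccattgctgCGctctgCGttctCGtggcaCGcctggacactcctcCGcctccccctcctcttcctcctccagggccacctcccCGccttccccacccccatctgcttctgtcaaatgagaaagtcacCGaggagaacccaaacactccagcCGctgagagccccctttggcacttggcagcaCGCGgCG
TFAP2A: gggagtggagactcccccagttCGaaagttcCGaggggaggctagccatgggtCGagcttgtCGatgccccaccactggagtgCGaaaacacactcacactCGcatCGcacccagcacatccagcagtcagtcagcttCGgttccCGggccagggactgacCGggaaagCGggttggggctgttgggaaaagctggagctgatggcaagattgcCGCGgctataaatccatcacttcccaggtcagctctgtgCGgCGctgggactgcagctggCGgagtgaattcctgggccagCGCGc
NR2F1: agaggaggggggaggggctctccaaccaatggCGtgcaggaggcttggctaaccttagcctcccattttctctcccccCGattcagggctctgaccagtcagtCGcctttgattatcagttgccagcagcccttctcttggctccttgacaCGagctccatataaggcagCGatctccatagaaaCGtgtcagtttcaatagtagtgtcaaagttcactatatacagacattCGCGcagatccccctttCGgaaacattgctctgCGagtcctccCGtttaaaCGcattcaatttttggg
EBF1: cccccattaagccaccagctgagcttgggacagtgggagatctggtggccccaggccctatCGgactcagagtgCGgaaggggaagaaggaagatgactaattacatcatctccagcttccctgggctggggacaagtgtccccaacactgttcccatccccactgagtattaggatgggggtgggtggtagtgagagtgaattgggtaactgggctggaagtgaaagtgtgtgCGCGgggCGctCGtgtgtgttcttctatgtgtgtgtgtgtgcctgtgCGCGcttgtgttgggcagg
NKX2-2: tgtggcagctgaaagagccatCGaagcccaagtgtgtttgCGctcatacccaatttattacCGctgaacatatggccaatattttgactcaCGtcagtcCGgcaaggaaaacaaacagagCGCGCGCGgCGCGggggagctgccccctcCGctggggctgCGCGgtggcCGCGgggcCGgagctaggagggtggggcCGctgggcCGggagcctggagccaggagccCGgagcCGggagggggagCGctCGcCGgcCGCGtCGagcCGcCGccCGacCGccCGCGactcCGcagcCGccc
HAND2: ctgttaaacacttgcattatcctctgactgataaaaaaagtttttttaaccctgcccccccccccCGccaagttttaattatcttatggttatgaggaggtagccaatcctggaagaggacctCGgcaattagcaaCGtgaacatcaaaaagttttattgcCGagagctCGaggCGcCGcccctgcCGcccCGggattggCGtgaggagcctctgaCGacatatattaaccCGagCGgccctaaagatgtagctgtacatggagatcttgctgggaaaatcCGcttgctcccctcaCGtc
These windows hold 15 CpG in SOX21, 18 in TFAP2A, 12 in NR2F1, 8 in EBF1, 35 in NKX2-2 and 15 in HAND2. EBF1, with SOX4, had the lowest CpG count among the 37 member promoters, which ranged over 8 to 54. FOXC1 and RUNX1, also higher than in Scramble cells in each of the other groups but not shown, held 40 CpG each.

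**Figure D1:**
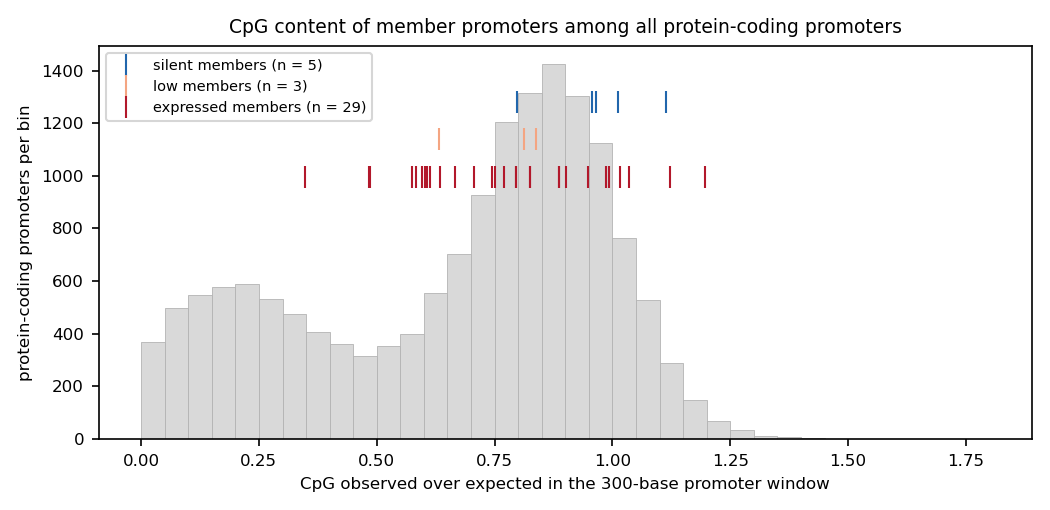
CpG observed over expected in the 300-base promoter window (x axis) of the members, as ticks by level class, over the number of protein-coding promoters per bin (grey bars, y axis). The 5 silent members lie at a median of 0.97, right of the median of 0.77 for the 29 expressed members.

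Most of these genes were on. A member was termed silent where its group mean was below 0.1 CPM in each of the 5 groups, expressed where it reached 1 CPM in at least 1 group, and low otherwise. By this measure 35 of 47 (74.5%) were expressed, 4 (8.51%) were low and 8 (17%) were silent. Over all 57445 identifiers 23.9% were expressed and 65.9% silent. These identifiers include non-coding RNA genes, 24013 had no count in any library, and no share was computed for protein-coding genes alone. Of 101 other genes of the same families, listed here as paralogues, 24 (23.8%) were expressed and 59 (58.4%) silent. The members were chosen with earlier results of these data known, so the higher share is a description of the choice as well as of the cells.

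Of the 8 silent genes, 6 had no count in any of the 10 libraries. They are FOXF2, a factor of gut mesenchyme, EN2, which patterns the midbrain and hindbrain, NKX2-2 of the ventral neural tube and pancreatic islets, HAND2 of heart and limb bud, LMX1B of dorsal limb and serotonergic neurons, and TFAP2C of trophoblast and germ cells. IRX3, an Iroquois homeodomain gene, had 2 counts in all, both in PRT4165 replicate 2. Its neighbour in the same gene cluster, IRX5, had 4 counts, 2 in replicate 1 of the libraries labelled RNF2 shRNA2 and 2 in GW-516 replicate 2. If counts were independent, a count of 0 would allow up to 3 counts, which is 0.0280 to 0.0468 CPM depending on the library. Both ends of a fragment were counted, so the actual limit is higher, and it covers counting error only. No library had more than 2 counts for any of the 8, so no rise was detectable at this depth in RNF2 shRNA1 cells, in the libraries labelled RNF2 shRNA2 or with either compound. All 3 GATA, all 3 PAX, all 3 T-box and all 6 SOX members were expressed. Of the 16 homeodomain members 10 were expressed, 1 was low and 5 were silent. Among the paralogues outside the members, 3 of 3 GATA, 5 of 6 PAX, 9 of 13 SOX and 5 of 13 T-box genes were silent. The pattern thus describes the members chosen and not their families.

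The 4 low genes were FOXD1 of kidney stroma (0.0312 to 0.304 CPM over the 10 libraries), FOXQ1 of gastric epithelium and hair (0.125 to 0.7696 CPM), LHX4 of pituitary and motor neurons (0.0558 to 0.304 CPM) and SALL4, an embryonic stem cell zinc finger factor (0.227 to 0.543 CPM). Of the exon bases of FOXD1, 86.6% are shared on the same strand with another annotated gene, so its level is uncertain. None of the 4 was called against Scramble in any comparison.

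Per length, in RPKM (CPM divided by exon length in kilobases), the most abundant member in Scramble cells was NR2F1, an orphan nuclear receptor also known as COUP-TFI, at 60.1 RPKM. SOX4, a progenitor factor widely active in carcinomas, followed at 45.1 RPKM, then SOX9 at 22.8, SOX12 at 21.4, FOXL1 at 17.7, SIX4 at 13.96 and NR2F2 at 13.5 RPKM. SOX9 and SOX12 were close, as were SIX4 and NR2F2. In RNF2 shRNA1 cells SOX4 stood at 47.03 RPKM and NR2F1 at 38.9 RPKM, and SOX21 was at 22.5 RPKM, against 6.33 RPKM in Scramble cells. At the low end of the expressed members were EBF1 at 0.487 RPKM, DLX4 at 0.369, GATA2 at 0.255 and TBX18 at 0.0322 RPKM in Scramble cells. In these bulk RNA libraries fewer cells with a gene on and less RNA per cell cannot be told apart.

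**Figure D2:**
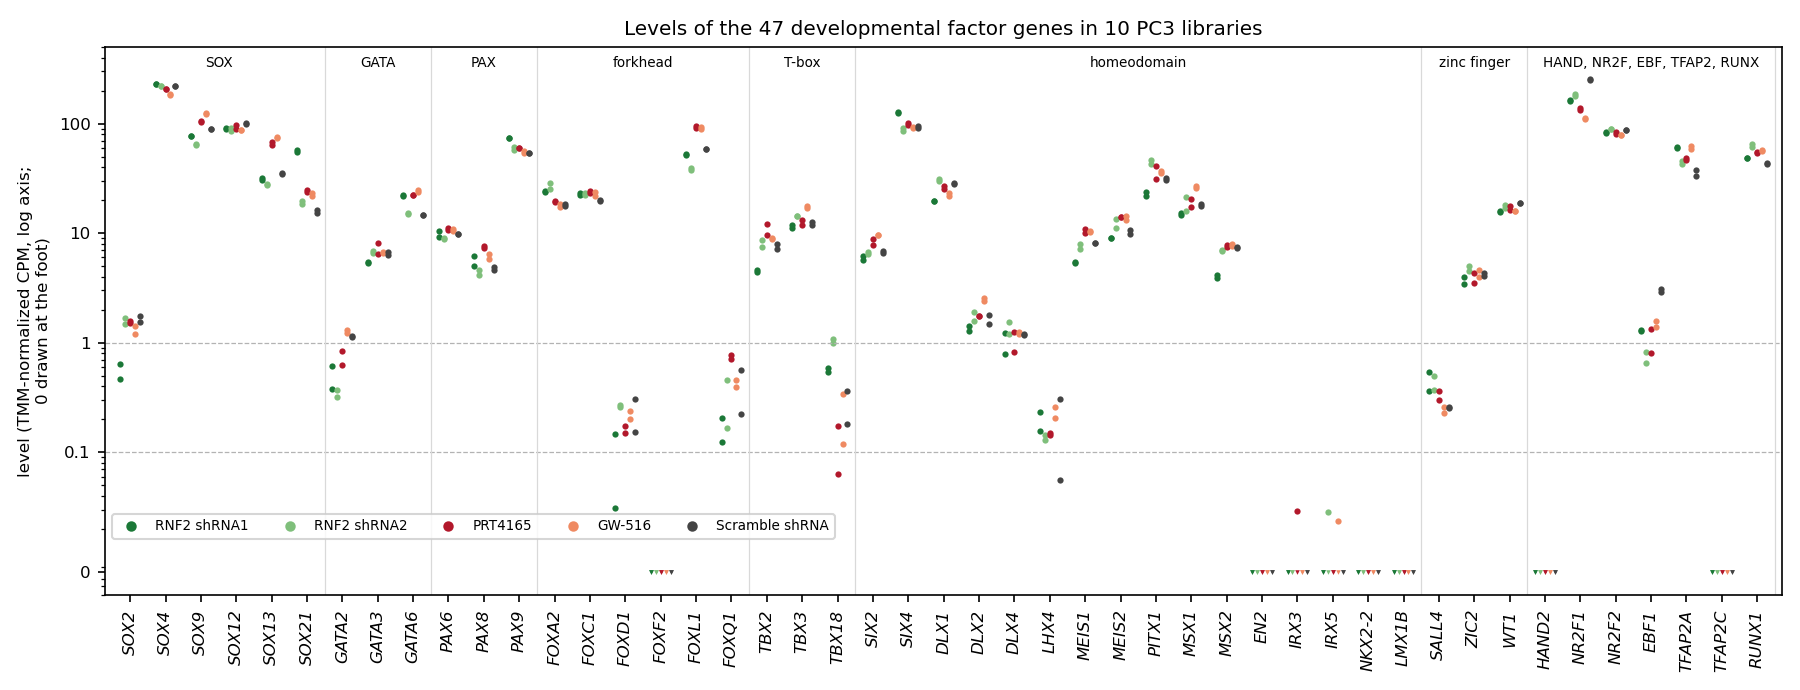
Levels of the 47 genes (x axis, by family) in TMM-normalized CPM on a log axis (y axis), 1 point per library and a colour per group; 0 is drawn at the foot and dashed lines mark 0.1 and 1 CPM. The 8 silent genes lie at the foot in nearly all libraries, and 35 genes reach 1 CPM in at least 1 group.

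Neighbouring genes could differ in class. On chromosome 6 (GRCh37) FOXQ1 (chr6:1312675-1314992) was low, FOXF2 (chr6:1390069-1395832) had no count, and FOXC1 (chr6:1610681-1614127) was expressed, with 75.1 kb between the first pair and 214.8 kb between FOXF2 and FOXC1. DLX1 (chr2:172949468-172954405) and DLX2 (chr2:172964167-172967628), opposite in orientation and 9.8 kb apart, stood at 28.5 and 27.9 CPM for DLX1 and 1.79 and 1.49 CPM for DLX2 in the Scramble libraries, or 7.71 and 0.552 RPKM.

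Of the 47 genes, 39 passed the filter on low counts and were tested with edgeR's quasi-likelihood test, with a call set at a Benjamini-Hochberg adjusted p below 0.05 over 18478 genes. The 4 comparisons with Scramble share its 2 libraries, so a value that is unusual in those moves all 4, and the values are given side by side with no overlap drawn from them. In RNF2 shRNA1 cells 8 members were called higher and 15 lower, with 26.2% of all genes called higher and 28.6% lower (54.7% in either direction). In the libraries labelled RNF2 shRNA2, 10 were called higher and 7 lower, with 21.1% and 21% of all genes (42.1% in either direction). With PRT4165, 15 were called higher and 5 lower, with 19.9% and 21.7% of all genes (41.6% in either direction). The 5 lower became 2 without Scramble replicate 1, GW-516 replicate 1 or GW-516 replicate 2, and 3 without Scramble replicate 2 or RNF2 shRNA1 replicate 2. With GW-516, 15 were called higher and 7 lower, with 26.5% and 29% of all genes (55.5% in either direction). The median log2 difference of the tested members was -0.18 in RNF2 shRNA1 cells, 0.042 in the libraries labelled RNF2 shRNA2, 0.11 with PRT4165 and 0.12 with GW-516, while the medians over all genes tested lay between -0.015 and 0.0086. As shares of the 39 tested members, 20.5% were higher and 38.5% lower in RNF2 shRNA1 cells, 25.6% and 17.9% in the libraries labelled RNF2 shRNA2, 38.5% and 12.8% with PRT4165, and 38.5% and 17.9% with GW-516. More members were thus called lower than higher in RNF2 shRNA1 cells, and more higher than lower with each compound, and no test was made of the members against other genes. Summing each near-identical pair to 1 sample left 6 higher and 9 lower in RNF2 shRNA1 cells, 5 and 7 in the libraries labelled RNF2 shRNA2, 12 and 2 with PRT4165, and 11 and 5 with GW-516.

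Changes of 2-fold or more were few among the 39 tested members, as among all genes tested. These shares were not tested against each other. At 2-fold or more, 1 member rose in RNF2 shRNA1 cells (SOX21) and 3 fell (SOX2, GATA2 and EBF1), while 8.57% of all genes were called at that size in either direction. In the libraries labelled RNF2 shRNA2, TBX18 rose and GATA2 and EBF1 fell that far, with 4.87% of all genes. With PRT4165 only EBF1 fell by 2-fold or more, with 4.76% of all genes, and with GW-516 SOX13 rose and NR2F1 and EBF1 fell, with 9.05% of all genes.

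**Figure D3:**
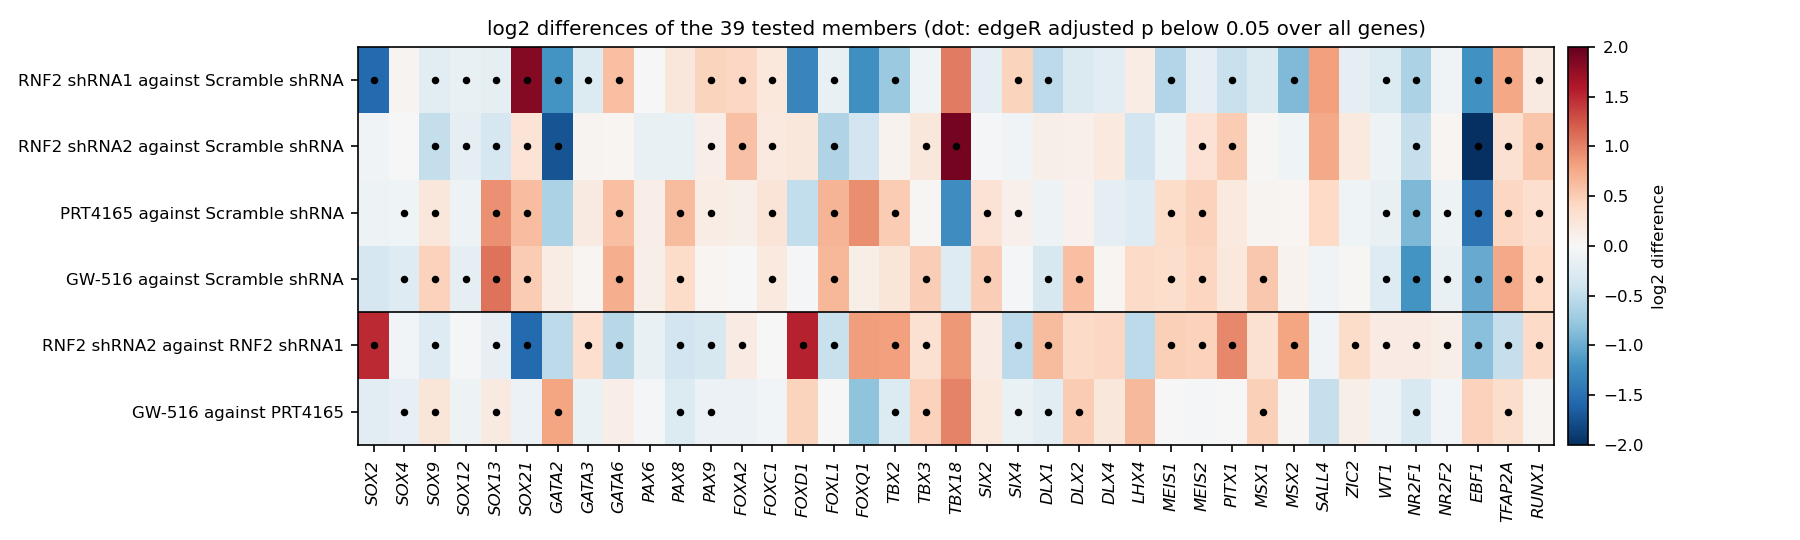
Log2 differences (colour, red higher and blue lower in the group named first) of the 39 tested members (x axis) in 6 comparisons (y axis), with a dot where the edgeR adjusted p was below 0.05. TBX18 at 1.91 and EBF1 at -2.05, both in the libraries labelled RNF2 shRNA2, are the largest called differences from Scramble in each direction, followed on the higher side by SOX21 at 1.83 in RNF2 shRNA1 cells.

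Among the SOX genes, which encode HMG-box factors, SOX21 and SOX2 moved in opposite directions in RNF2 shRNA1 cells. SOX21, a factor known to oppose SOX2-type activators in neural progenitors, stood at 57.02 and 55.5 CPM in RNF2 shRNA1 cells, 18.4 and 19.7 CPM in the libraries labelled RNF2 shRNA2, 23.9 and 24.95 CPM with PRT4165, 22.04 and 23.1 CPM with GW-516, against 15.4 and 16.3 CPM in Scramble cells. Both RNF2 shRNA1 libraries were far above all others, and the libraries of each of the other 3 groups lay above both of Scramble. The differences from Scramble were 3.55-fold in RNF2 shRNA1 cells (log2 1.83, SE 0.055, adjusted p = 1.2e-18 by edgeR), log2 0.27 in the libraries labelled RNF2 shRNA2 (adjusted p = 0.00055 by edgeR), 0.62 with PRT4165 (adjusted p = 2.8e-09 by edgeR) and 0.51 with GW-516 (adjusted p = 3.6e-08 by edgeR). SOX2, a factor of pluripotent and stem cells, stood at 0.645 and 0.468 CPM in RNF2 shRNA1 cells, 1.69 and 1.47 CPM in the libraries labelled RNF2 shRNA2, 1.56 and 1.5 CPM with PRT4165, 1.41 and 1.21 CPM with GW-516, against 1.54 and 1.76 CPM in Scramble cells. It fell 2.94-fold in RNF2 shRNA1 cells (log2 -1.56, SE 0.23, adjusted p = 2.4e-06 by edgeR), whose libraries lay below all others. Against Scramble the other 3 groups were not called for SOX2, with log2 -0.07 (95% interval -0.47 to 0.33) in the libraries labelled RNF2 shRNA2, -0.10 (-0.51 to 0.30) with PRT4165 and -0.33 (-0.74 to 0.07) with GW-516.

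SOX13 and SOX9 rose with both compounds and were called lower in both hairpin groups. SOX13, of the SoxD branch, stood at 31.6 and 30.6 CPM in RNF2 shRNA1 cells, 27.97 and 27.3 CPM in the libraries labelled RNF2 shRNA2, 63.6 and 68.2 CPM with PRT4165, 73.6 and 75.5 CPM with GW-516, against 35.2 and 34.97 CPM in Scramble cells. Both compounds gave 1.88-fold (PRT4165, log2 0.91, SE 0.045, adjusted p = 2.8e-14 by edgeR) and 2.13-fold (GW-516, log2 1.09, SE 0.044, adjusted p = 3.6e-16 by edgeR) higher levels, with no overlap with Scramble. SOX9, a factor of cartilage, testis and prostate epithelium, stood at 77.6 and 77.3 CPM in RNF2 shRNA1 cells, 65.3 and 63.8 CPM in the libraries labelled RNF2 shRNA2, 106 and 104 CPM with PRT4165, 124 and 124 CPM with GW-516, against 90.1 and 89.2 CPM in Scramble cells. Its log2 differences from Scramble were -0.21 in RNF2 shRNA1 cells (adjusted p = 1.1e-05 by edgeR), -0.47 in the libraries labelled RNF2 shRNA2 (adjusted p = 4.3e-11 by edgeR), 0.23 with PRT4165 (adjusted p = 4.7e-06 by edgeR) and 0.47 with GW-516 (adjusted p = 1.4e-11 by edgeR). Groups did not overlap with Scramble for SOX9. SOX4 and SOX12, both of the SoxC branch, changed little: SOX4 ranged over 183 to 231 CPM and SOX12 over 84.8 to 100.2 CPM in the 10 libraries. SOX12 was called lower in the libraries labelled RNF2 shRNA2 (log2 -0.18, adjusted p = 0.00079 by edgeR) and with GW-516 (log2 -0.19, adjusted p = 0.00028 by edgeR), where the call was lost with pairs summed (adjusted p = 0.057 by edgeR). SOX4 was called lower with GW-516 (log2 -0.26, adjusted p = 1.8e-08 by edgeR). The call of SOX4 with PRT4165 (log2 -0.09) was lost under 8 of 17 alternatives, among them without Scramble replicate 1 (adjusted p = 0.099 by edgeR), Scramble replicate 2 (0.25), PRT4165 replicate 2 (0.071), GW-516 replicate 1 (0.066) or GW-516 replicate 2 (0.066). In RNF2 shRNA1 cells the calls of SOX12 (log2 -0.14) and SOX13 (log2 -0.17) were lost without RNF2 shRNA1 replicate 2 (adjusted p = 0.053 and 0.082 by edgeR), and that of SOX12 also without Scramble replicate 2 (0.082).

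The 3 GATA genes, zinc finger factors of blood and endoderm lineages, each had their own pattern. GATA2, a blood stem cell factor, stood at 0.381 and 0.608 CPM in RNF2 shRNA1 cells, 0.372 and 0.317 CPM in the libraries labelled RNF2 shRNA2, 0.631 and 0.837 CPM with PRT4165, 1.22 and 1.303 CPM with GW-516, against 1.12 and 1.16 CPM in Scramble cells. The 4 libraries labelled with a hairpin against RNF2 lay below both compounds and Scramble, though 0.608 CPM in RNF2 shRNA1 cells was close to 0.631 CPM with PRT4165. Both PRT4165 libraries also lay below both of Scramble. GATA2 fell in RNF2 shRNA1 cells (log2 -1.20, SE 0.28, adjusted p = 0.0007 by edgeR) and in the libraries labelled RNF2 shRNA2 (log2 -1.73, SE 0.28, adjusted p = 2e-05 by edgeR). GATA6, a factor of endoderm, stood at 22.4 and 21.9 CPM in RNF2 shRNA1 cells, 15.3 and 14.99 CPM in the libraries labelled RNF2 shRNA2, 22.2 and 22.4 CPM with PRT4165, 24.7 and 23.98 CPM with GW-516, against 14.7 and 14.6 CPM in Scramble cells. It rose 1.51-fold in RNF2 shRNA1 cells (log2 0.60, SE 0.058, adjusted p = 3.1e-09 by edgeR), 1.52-fold with PRT4165 (log2 0.60, SE 0.057, adjusted p = 5.1e-09 by edgeR) and 1.66-fold with GW-516 (log2 0.73, SE 0.056, adjusted p = 5.5e-11 by edgeR). In the libraries labelled RNF2 shRNA2 GATA6 was not called (log2 0.05, 95% interval -0.08 to 0.17). GATA3, of luminal breast epithelium and T cells, ranged over 5.301 to 8.18 CPM. Its call in RNF2 shRNA1 cells (log2 -0.27, SE 0.11, adjusted p = 0.039 by edgeR) was lost under 9 of 17 alternatives, among them without Scramble replicate 1 (adjusted p = 0.21 by edgeR) or 2 (0.085), RNF2 shRNA1 replicate 1 (0.098) or 2 (0.18), or GW-516 replicate 1 (0.061) or 2 (0.061).

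PAX9 and PAX8, paired-domain factors, were called higher in some groups, and PAX6 was called in none. PAX9, of tooth and pharyngeal pouch, stood at 73.9 and 73.3 CPM in RNF2 shRNA1 cells, 57.3 and 60.8 CPM in the libraries labelled RNF2 shRNA2, 60.4 and 59.9 CPM with PRT4165, 56.7 and 53.9 CPM with GW-516, against 54.1 and 53.96 CPM in Scramble cells. RNF2 shRNA1 libraries were the highest (log2 0.45, SE 0.041, adjusted p = 1.2e-09 by edgeR). PAX9 was called in the libraries labelled RNF2 shRNA2 (log2 0.13) and with PRT4165 (log2 0.16) too. The first of these calls was lost without Scramble replicate 1 (adjusted p = 0.094 by edgeR), Scramble replicate 2 (0.056) or RNF2 shRNA2 replicate 2 (0.25), and both were lost with the near-identical pairs summed (0.23 and 0.092). PAX8, of thyroid and kidney, stood at 6.21 and 5.05 CPM in RNF2 shRNA1 cells, 4.59 and 4.11 CPM in the libraries labelled RNF2 shRNA2, 7.38 and 7.56 CPM with PRT4165, 6.47 and 5.85 CPM with GW-516, against 4.94 and 4.65 CPM in Scramble cells. It rose 1.56-fold with PRT4165 (log2 0.64, SE 0.11, adjusted p = 4.6e-05 by edgeR). The call of PAX8 with GW-516 (log2 0.36, SE 0.11, adjusted p = 0.0082 by edgeR) was lost without Scramble replicate 2 (adjusted p = 0.059 by edgeR) or GW-516 replicate 1 (0.082). PAX6, of eye and forebrain, ranged over 8.91 to 11.2 CPM in the 10 libraries and was called in none of the 6 comparisons. Its 95% intervals were -0.17 to 0.17 in RNF2 shRNA1 cells and -0.06 to 0.28 with GW-516. The libraries labelled RNF2 shRNA2 stood at 8.98 and 8.91 CPM for PAX6, and those with PRT4165 at 10.6 and 11.2 CPM. Neither pair overlapped with Scramble cells, at 9.91 and 9.88 CPM.

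Of the forkhead genes, FOXL1 and FOXA2 had the largest differences from Scramble that were called. FOXL1, of gut mesenchyme, stood at 51.9 and 52.6 CPM in RNF2 shRNA1 cells, 37.6 and 38.9 CPM in the libraries labelled RNF2 shRNA2, 90.3 and 94.6 CPM with PRT4165, 90.01 and 93.3 CPM with GW-516, against 58 and 58.1 CPM in Scramble cells. Both compounds lay above Scramble and both hairpin groups below it, without overlap. FOXL1 rose 1.59-fold with PRT4165 (log2 0.67, SE 0.039, adjusted p = 6.7e-13 by edgeR) and 1.58-fold with GW-516 (log2 0.66, SE 0.039, adjusted p = 3.6e-13 by edgeR), and fell 1.51-fold in the libraries labelled RNF2 shRNA2 (log2 -0.60, SE 0.041, adjusted p = 1.3e-11 by edgeR). In RNF2 shRNA1 cells its call (log2 -0.15, adjusted p = 0.0025 by edgeR) was lost with the near-identical pairs summed (adjusted p = 0.17 by edgeR). FOXA2, a pioneer factor of endoderm, stood at 23.9 and 24.03 CPM in RNF2 shRNA1 cells, 28.9 and 25.3 CPM in the libraries labelled RNF2 shRNA2, 19.1 and 19.7 CPM with PRT4165, 17.4 and 18.3 CPM with GW-516, against 17.6 and 18.4 CPM in Scramble cells. The 4 libraries labelled with a hairpin against RNF2 were the highest, and FOXA2 rose in RNF2 shRNA1 cells (log2 0.41, SE 0.064, adjusted p = 5.1e-06 by edgeR) and in the libraries labelled RNF2 shRNA2 (log2 0.59, SE 0.063, adjusted p = 3.6e-08 by edgeR). With the compounds FOXA2 was not called (log2 0.11, 95% interval -0.02 to 0.25, with PRT4165, and -0.01, interval -0.14 to 0.12, with GW-516). FOXC1, of the eye and mesoderm, was called higher in all groups by log2 0.20 in RNF2 shRNA1 cells, 0.19 in the libraries labelled RNF2 shRNA2, 0.25 with PRT4165 and 0.20 with GW-516, over 19.5 to 24 CPM. All of these FOXC1 calls but that of PRT4165 were lost with pairs summed (adjusted p = 0.073, 0.12 and 0.093 by edgeR). They were also lost without RNF2 shRNA1 replicate 1 (0.072, RNF2 shRNA1 comparison), Scramble replicate 1 (0.12) or RNF2 shRNA2 replicate 1 (0.073, RNF2 shRNA2 comparison), or GW-516 replicate 2 (0.098, GW-516 comparison).

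The T-box genes differed by treatment. TBX2, a repressor known for bypassing senescence, stood at 4.64 and 4.46 CPM in RNF2 shRNA1 cells, 8.65 and 7.45 CPM in the libraries labelled RNF2 shRNA2, 9.59 and 12.1 CPM with PRT4165, 9.12 and 8.79 CPM with GW-516, against 7.97 and 7.24 CPM in Scramble cells. RNF2 shRNA1 libraries lay below all others (log2 -0.74, SE 0.12, adjusted p = 7e-06 by edgeR), and PRT4165 libraries were the highest (log2 0.51, SE 0.1, adjusted p = 0.00033 by edgeR). TBX3, its close relative in limb and mammary gland, stood at 11.96 and 11.2 CPM in RNF2 shRNA1 cells, 14.4 and 14.3 CPM in the libraries labelled RNF2 shRNA2, 11.9 and 13.1 CPM with PRT4165, 17.5 and 16.8 CPM with GW-516, against 12.7 and 11.9 CPM in Scramble cells. It rose with GW-516 (log2 0.48, SE 0.07, adjusted p = 2e-06 by edgeR). The smaller TBX3 difference in the libraries labelled RNF2 shRNA2 (log2 0.22, adjusted p = 0.012 by edgeR) was lost without Scramble replicate 2 (adjusted p = 0.12 by edgeR). TBX18, of ureter mesenchyme and sinoatrial node, stood at 0.587 and 0.546 CPM in RNF2 shRNA1 cells, 0.987 and 1.08 CPM in the libraries labelled RNF2 shRNA2, 0.0631 and 0.173 CPM with PRT4165, 0.341 and 0.118 CPM with GW-516, against 0.363 and 0.182 CPM in Scramble cells. Its group mean reached 1 CPM only in the libraries labelled RNF2 shRNA2, and without replicate 2 of these it would be termed low. It rose there 3.75-fold (log2 1.91, SE 0.41, adjusted p = 0.0006 by edgeR), with both libraries above all others. In RNF2 shRNA1 cells the TBX18 difference was not called (log2 1.04, SE 0.44, adjusted p = 0.052 by edgeR).

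Among the homeodomain genes MSX2 and DLX1 fell and SIX4 rose in RNF2 shRNA1 cells. MSX2, a BMP-responsive repressor of skull and tooth, stood at 4.14 and 3.91 CPM in RNF2 shRNA1 cells, 6.98 and 6.92 CPM in the libraries labelled RNF2 shRNA2, 7.54 and 7.76 CPM with PRT4165, 7.905 and 7.698 CPM with GW-516, against 7.28 and 7.54 CPM in Scramble cells. It fell in RNF2 shRNA1 cells (log2 -0.88, SE 0.097, adjusted p = 2.7e-08 by edgeR), with both libraries below all others, and was called against Scramble in no other group. DLX1, a Distal-less factor of forebrain interneurons, stood at 19.8 and 19.6 CPM in RNF2 shRNA1 cells, 29.7 and 31.3 CPM in the libraries labelled RNF2 shRNA2, 25.5 and 27.05 CPM with PRT4165, 22.03 and 23.2 CPM with GW-516, against 28.5 and 27.9 CPM in Scramble cells. It fell in RNF2 shRNA1 cells (log2 -0.52, SE 0.056, adjusted p = 1.6e-08 by edgeR) and with GW-516 (log2 -0.32, SE 0.054, adjusted p = 1.8e-05 by edgeR). SIX4, of muscle and neural precursors, stood at 127 and 126 CPM in RNF2 shRNA1 cells, 84.99 and 91.1 CPM in the libraries labelled RNF2 shRNA2, 102 and 98.03 CPM with PRT4165, 92.9 and 90.2 CPM with GW-516, against 90.6 and 95.2 CPM in Scramble cells. It rose in RNF2 shRNA1 cells (log2 0.44, SE 0.038, adjusted p = 3.9e-10 by edgeR), whose libraries were above all others. The SIX4 call with PRT4165 (log2 0.11, adjusted p = 0.031 by edgeR) was lost without Scramble replicate 1 (adjusted p = 0.26 by edgeR), RNF2 shRNA1 replicate 1 (0.05) or PRT4165 replicate 1 (0.15).

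MEIS1 and MEIS2, TALE factors that bind DNA beside HOX proteins, both rose with the compounds. MEIS1 stood at 5.501 and 5.32 CPM in RNF2 shRNA1 cells, 8.02 and 7.14 CPM in the libraries labelled RNF2 shRNA2, 10.9 and 9.98 CPM with PRT4165, 10.3 and 10.5 CPM with GW-516, against 8.15 and 8.104 CPM in Scramble cells. It fell in RNF2 shRNA1 cells (log2 -0.59, SE 0.094, adjusted p = 8e-06 by edgeR) and rose with PRT4165 (log2 0.36, SE 0.086, adjusted p = 0.0014 by edgeR) and GW-516 (log2 0.35, SE 0.086, adjusted p = 0.001 by edgeR), the groups not overlapping with Scramble. MEIS2 stood at 8.95 and 9.04 CPM in RNF2 shRNA1 cells, 11.1 and 13.6 CPM in the libraries labelled RNF2 shRNA2, 13.9 and 14.1 CPM with PRT4165, 13.1 and 14.3 CPM with GW-516, against 9.81 and 10.6 CPM in Scramble cells. Its log2 differences from Scramble were 0.46 with PRT4165 (adjusted p = 0.00011 by edgeR) and 0.43 with GW-516 (adjusted p = 0.00016 by edgeR). The MEIS2 call in the libraries labelled RNF2 shRNA2 (log2 0.28) was lost without Scramble replicate 1 (adjusted p = 0.14 by edgeR) or RNF2 shRNA2 replicate 2 (0.39). SIX2, which maintains nephron progenitors, stood at 6.13 and 5.63 CPM in RNF2 shRNA1 cells, 6.45 and 6.73 CPM in the libraries labelled RNF2 shRNA2, 7.75 and 8.76 CPM with PRT4165, 9.55 and 9.55 CPM with GW-516, against 6.89 and 6.61 CPM in Scramble cells. It rose with GW-516 (log2 0.50, SE 0.09, adjusted p = 4.4e-05 by edgeR), and its call with PRT4165 (log2 0.29) was lost without Scramble replicate 2 (adjusted p = 0.084 by edgeR) or PRT4165 replicate 2 (0.14).

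PITX1, a hindlimb factor, stood at 23.98 and 21.9 CPM in RNF2 shRNA1 cells, 46.7 and 42.6 CPM in the libraries labelled RNF2 shRNA2, 31.4 and 40.7 CPM with PRT4165, 35.6 and 37.2 CPM with GW-516, against 32.1 and 30.5 CPM in Scramble cells. The libraries labelled RNF2 shRNA2 were the highest and RNF2 shRNA1 the lowest. Against Scramble both calls depended on single libraries: the fall in RNF2 shRNA1 cells (log2 -0.45, adjusted p = 0.022 by edgeR) was lost without Scramble replicate 1 (adjusted p = 0.088 by edgeR), Scramble replicate 2 (0.067) or RNF2 shRNA1 replicate 2 (0.12). The PITX1 rise in the libraries labelled RNF2 shRNA2 (log2 0.51, adjusted p = 0.013 by edgeR) was lost without Scramble replicate 2 (adjusted p = 0.075 by edgeR). MSX1 and DLX2 were called higher with GW-516 (log2 0.54 for MSX1, adjusted p = 0.013 by edgeR, and 0.60 for DLX2, adjusted p = 0.0037 by edgeR). MSX1 stood at 25.8 and 26.9 CPM with GW-516, against 18.4 and 17.8 CPM in Scramble cells, and DLX2 at 2.42 and 2.57 CPM with GW-516, against 1.79 and 1.49 CPM in Scramble cells. Both calls were lost without Scramble replicate 2 (log2 0.53 for MSX1 and 0.50 for DLX2) and with pairs summed (log2 0.54 for MSX1 and 0.60 for DLX2). DLX4 (0.795 to 1.54 CPM over the 10 libraries) was called in no comparison.

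**Figure D4:**
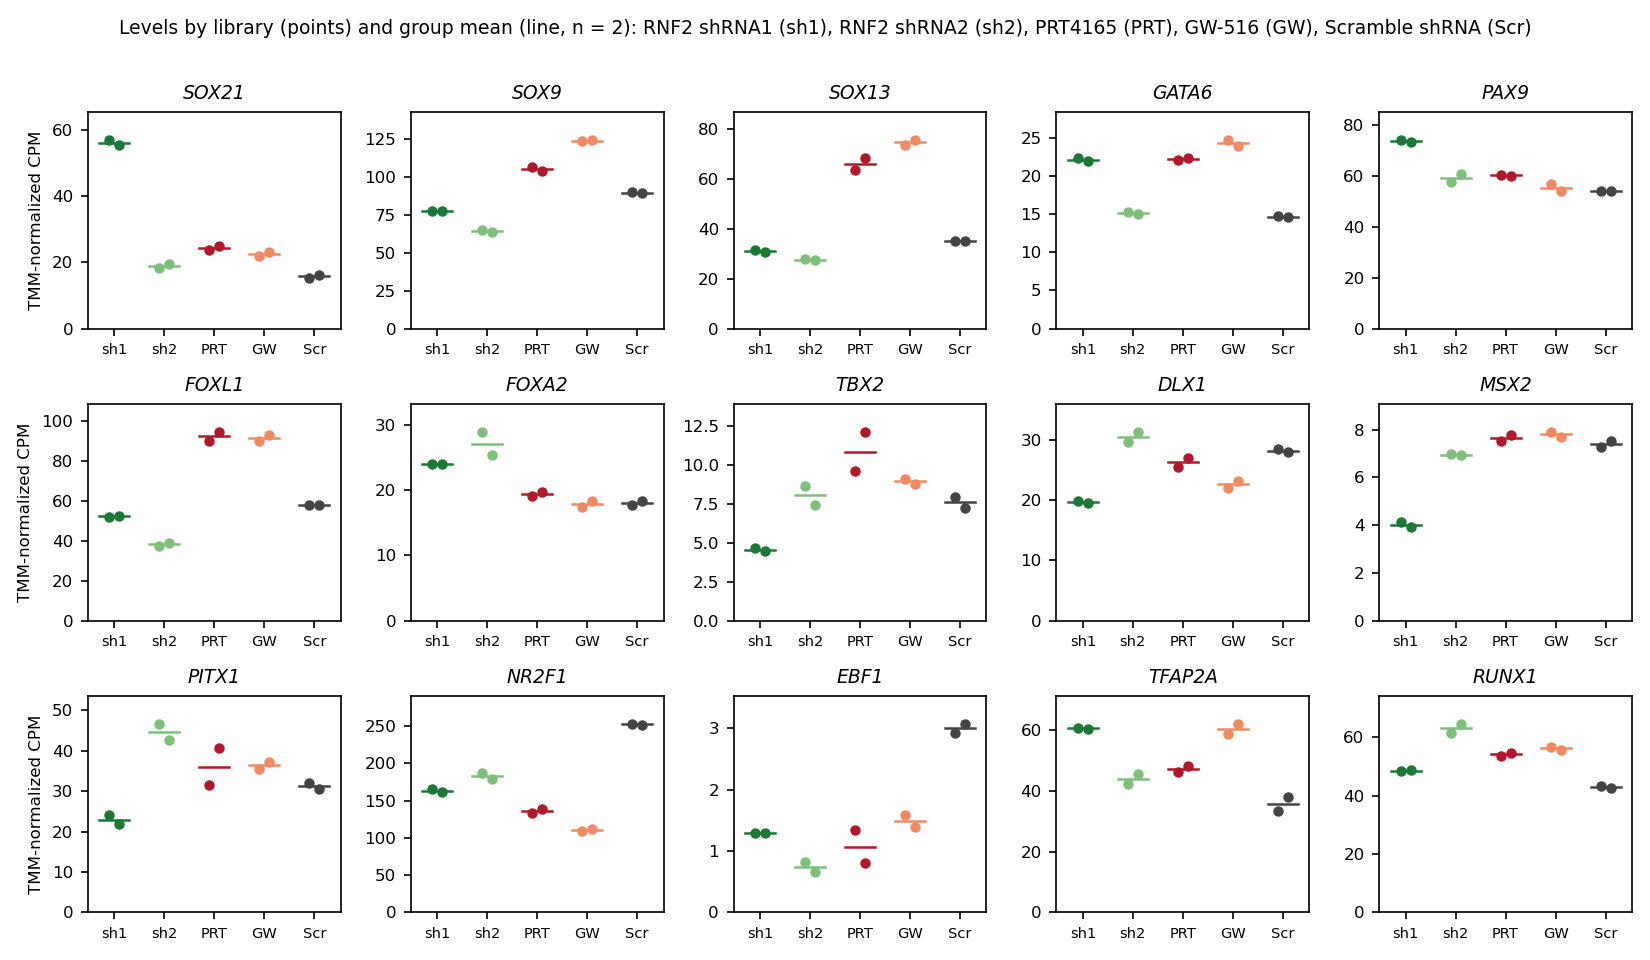
Levels in TMM-normalized CPM (y axes, from 0) of 15 members in the 5 groups (x axes), with points for libraries and a line for the group mean (n = 2). SOX21 stands out in RNF2 shRNA1 cells at 57.02 and 55.5 CPM, and NR2F1 and EBF1 are highest in Scramble cells.

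Outside these families, NR2F1 and EBF1 fell in every comparison with Scramble. NR2F1 stood at 165 and 162 CPM in RNF2 shRNA1 cells, 188 and 179 CPM in the libraries labelled RNF2 shRNA2, 134 and 138 CPM with PRT4165, 109.5 and 111 CPM with GW-516, against 253 and 252 CPM in Scramble cells. Both Scramble libraries were above all others, and the GW-516 libraries were the lowest. The differences were -0.63 in RNF2 shRNA1 cells (adjusted p = 1.6e-14 by edgeR), -0.46 in the libraries labelled RNF2 shRNA2 (adjusted p = 1.3e-11 by edgeR), -0.89 with PRT4165 (adjusted p = 5.3e-17 by edgeR) and -1.19 with GW-516 (adjusted p = 8.9e-20 by edgeR), on the log2 scale. EBF1, a B cell factor, stood at 1.29 and 1.29 CPM in RNF2 shRNA1 cells, 0.815 and 0.653 CPM in the libraries labelled RNF2 shRNA2, 1.34 and 0.808 CPM with PRT4165, 1.59 and 1.39 CPM with GW-516, against 2.93 and 3.07 CPM in Scramble cells. Again both Scramble libraries were the highest, and EBF1 fell 2.32-fold in RNF2 shRNA1 cells (log2 -1.21, SE 0.2, adjusted p = 1.5e-05 by edgeR), 4.14-fold in the libraries labelled RNF2 shRNA2 (log2 -2.05, SE 0.21, adjusted p = 2.2e-08 by edgeR), 2.77-fold with PRT4165 (log2 -1.47, SE 0.2, adjusted p = 2.1e-06 by edgeR) and 2.01-fold with GW-516 (log2 -1.01, SE 0.19, adjusted p = 8.7e-05 by edgeR). Since Scramble is the only hairpin control, a feature of its 2 libraries and a change in the 4 other groups cannot be told apart for these genes. NR2F2 (COUP-TFII), the paralogue of NR2F1, ranged over only 78.6 to 89.9 CPM. Its call with GW-516 (log2 -0.14) was lost with pairs summed (adjusted p = 0.14 by edgeR), and its call with PRT4165 (log2 -0.10) was lost under 11 of 17 alternatives (edgeR adjusted p up to 0.34). Among these were Scramble replicate 1 (0.15) or 2 (0.26), RNF2 shRNA1 replicate 2 (0.059), PRT4165 replicate 2 (0.29), and GW-516 replicate 1 or 2 (0.09 for each) left out.

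TFAP2A and RUNX1 rose in every comparison with Scramble. TFAP2A, a factor of neural crest and surface ectoderm, stood at 60.8 and 60.3 CPM in RNF2 shRNA1 cells, 42.3 and 45.4 CPM in the libraries labelled RNF2 shRNA2, 46.3 and 48.2 CPM with PRT4165, 58.8 and 62.01 CPM with GW-516, against 33.3 and 37.9 CPM in Scramble cells. Scramble libraries were the lowest, and the rise was 1.701-fold in RNF2 shRNA1 cells (log2 0.77, SE 0.054, adjusted p = 3.4e-11 by edgeR), 1.23-fold in the libraries labelled RNF2 shRNA2 (log2 0.30, SE 0.054, adjusted p = 8e-05 by edgeR), 1.33-fold with PRT4165 (log2 0.41, SE 0.054, adjusted p = 1.7e-06 by edgeR) and 1.696-fold with GW-516 (log2 0.76, SE 0.053, adjusted p = 3.3e-11 by edgeR). RUNX1, required for definitive blood stem cells, stood at 48.4 and 48.7 CPM in RNF2 shRNA1 cells, 61.6 and 64.7 CPM in the libraries labelled RNF2 shRNA2, 53.7 and 54.8 CPM with PRT4165, 56.9 and 55.9 CPM with GW-516, against 43.4 and 42.5 CPM in Scramble cells. The libraries labelled RNF2 shRNA2 were the highest (log2 0.56, SE 0.041, adjusted p = 6.4e-11 by edgeR), and the smallest difference, in RNF2 shRNA1 cells (log2 0.18), was lost with pairs summed (adjusted p = 0.069 by edgeR). WT1, of kidney and gonad, was lower with GW-516 (log2 -0.26, SE 0.061, adjusted p = 0.00086 by edgeR), at 15.8 and 15.8 CPM with GW-516, against 18.95 and 18.9 CPM in Scramble cells. Its call in RNF2 shRNA1 cells (log2 -0.27) was lost with pairs summed (adjusted p = 0.053 by edgeR), and with PRT4165 (log2 -0.15, adjusted p = 0.049 by edgeR) 16 of 17 alternatives gave no call, every library left out but PRT4165 replicate 2 included (edgeR adjusted p 0.057 to 0.36). ZIC2, of the forebrain, ranged over 3.46 to 5.04 CPM and was called against Scramble in no comparison.

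Between the hairpin groups 26 of the 39 tested members differed, 16 higher and 10 lower in the libraries labelled RNF2 shRNA2 than in RNF2 shRNA1 cells, where 29.9% and 29.2% of all genes were called (59.2% in either direction). Of these 3 reached 2-fold, with 11.2% of all genes. Among them were SOX21, lower by 2.95-fold (log2 -1.56, SE 0.053, adjusted p = 7e-18 by edgeR), and SOX2, higher by 2.81-fold (log2 1.49, SE 0.23, adjusted p = 3.2e-06 by edgeR). PITX1, TBX2, MSX2 and DLX1 were also higher there. NR2F1 differed little between the hairpin groups (log2 0.17), and that call was lost with pairs summed (adjusted p = 0.053 by edgeR). For FOXC1 the difference was not called (log2 -0.02, 95% interval -0.14 to 0.11).

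GW-516 and PRT4165, applied for the same 48 hours at doses the labels do not give, were compared directly for each member. Of 39 members 7 were higher and 7 lower with GW-516 than with PRT4165, while 18.1% of all genes were called higher and 23% lower (41.1% in either direction). The 7 lower became 4 without GW-516 replicate 1 and 3 without GW-516 replicate 2. Each of the 14 differences called was smaller than 2-fold, a size reached by 4.38% of all genes. SOX9 (log2 0.24, SE 0.033, adjusted p = 2.5e-06 by edgeR), TFAP2A (log2 0.35, SE 0.052, adjusted p = 7.9e-06 by edgeR) and TBX3 (log2 0.46, SE 0.069, adjusted p = 7.4e-06 by edgeR) were higher with GW-516. NR2F1 (log2 -0.30, SE 0.032, adjusted p = 3.9e-08 by edgeR) and SOX4 (log2 -0.17, SE 0.028, adjusted p = 2e-05 by edgeR) were lower with GW-516. These 5 held under all 17 alternatives that set no 2-fold minimum, and the other 9 calls did not. GATA2 was called higher with GW-516 (log2 0.78, SE 0.25, adjusted p = 0.015 by edgeR), at 1.22 and 1.303 CPM with GW-516, against 0.631 and 0.837 CPM with PRT4165, a call lost without PRT4165 replicate 1 (adjusted p = 0.16 by edgeR), GW-516 replicate 1 (0.051) or GW-516 replicate 2 (0.089). FOXL1, MEIS1 and GATA6 were not called between the compounds, with 95% intervals of the log2 difference of -0.09 to 0.07 for FOXL1, -0.18 to 0.16 for MEIS1 and 0.02 to 0.24 for GATA6. These intervals are not adjusted for the number of genes, and that of GATA6 lay above 0. The doses are not known to match, so these values describe these treatments and not the compounds' potency.

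Of the tested members, 9 have an expressed antisense or divergent RNA on the other strand, and the strand-specific counts separate the partners. In RNF2 shRNA1 cells SOX21-AS1 rose as SOX21 did, at 27.6 and 27.7 CPM, against 10.05 and 9.99 CPM in Scramble cells (log2 1.46, SE 0.069, adjusted p = 4.7e-15 by edgeR). SOX21-AS1 was not called in the libraries labelled RNF2 shRNA2 or with PRT4165, where SOX21 was called higher. GATA6-AS1 rose with GATA6 in RNF2 shRNA1 cells (log2 1.32, SE 0.27, adjusted p = 0.00021 by edgeR) and with GW-516 (log2 1.2, SE 0.27, adjusted p = 0.0005 by edgeR), at 1.89 and 1.48 CPM in RNF2 shRNA1 cells and 1.499 and 1.61 CPM with GW-516, against 0.698 and 0.654 CPM in Scramble cells. With PRT4165, where GATA6 rose, GATA6-AS1 was not called (log2 0.02, 95% interval -0.60 to 0.64). PAX8-AS1, at 44.02 and 44.8 CPM in Scramble cells, rose with PRT4165 (log2 0.52, SE 0.041, adjusted p = 1.6e-10 by edgeR) and with GW-516 (log2 0.59, SE 0.04, adjusted p = 5.5e-12 by edgeR).

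NR2F1 and its partner parted in RNF2 shRNA1 cells. NR2F1-AS1 rose in RNF2 shRNA1 cells (log2 0.36, SE 0.061, adjusted p = 1.6e-05 by edgeR), where NR2F1 fell by 0.63 on the log2 scale, and NR2F1-AS1 fell with PRT4165 (log2 -0.35, SE 0.063, adjusted p = 5.7e-05 by edgeR) and GW-516 (log2 -0.33, SE 0.062, adjusted p = 6.4e-05 by edgeR), as NR2F1 did. NR2F1-AS1 stood at 24.5 and 24.3 CPM in RNF2 shRNA1 cells, 19.9 and 19.4 CPM in the libraries labelled RNF2 shRNA2, 14.1 and 15.6 CPM with PRT4165, 14.6 and 15.5 CPM with GW-516, against 18.9 and 19.1 CPM in Scramble cells. WT1-AS fell in RNF2 shRNA1 cells (log2 -0.63, SE 0.1, adjusted p = 1.1e-05 by edgeR) and in the libraries labelled RNF2 shRNA2 (log2 -0.34, SE 0.098, adjusted p = 0.0067 by edgeR). SOX9-AS1 (log2 -1.35, SE 0.45, adjusted p = 0.019 by edgeR) and TBX2-AS1 (log2 -0.52, SE 0.2, adjusted p = 0.037 by edgeR) were lower in the libraries labelled RNF2 shRNA2. Of the whole list of antisense and divergent RNAs, 13 of 26 were tested, with 4 higher and 3 lower in RNF2 shRNA1 cells, 3 lower in the libraries labelled RNF2 shRNA2, 1 higher and 2 lower with PRT4165, and 5 higher and 2 lower with GW-516. The share called was 53.8% in RNF2 shRNA1 cells (54.7% of all genes), 23.1% in the libraries labelled RNF2 shRNA2 (42.1%), 23.1% with PRT4165 (41.6%) and 53.8% with GW-516 (55.5%).

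**Figure D5:**
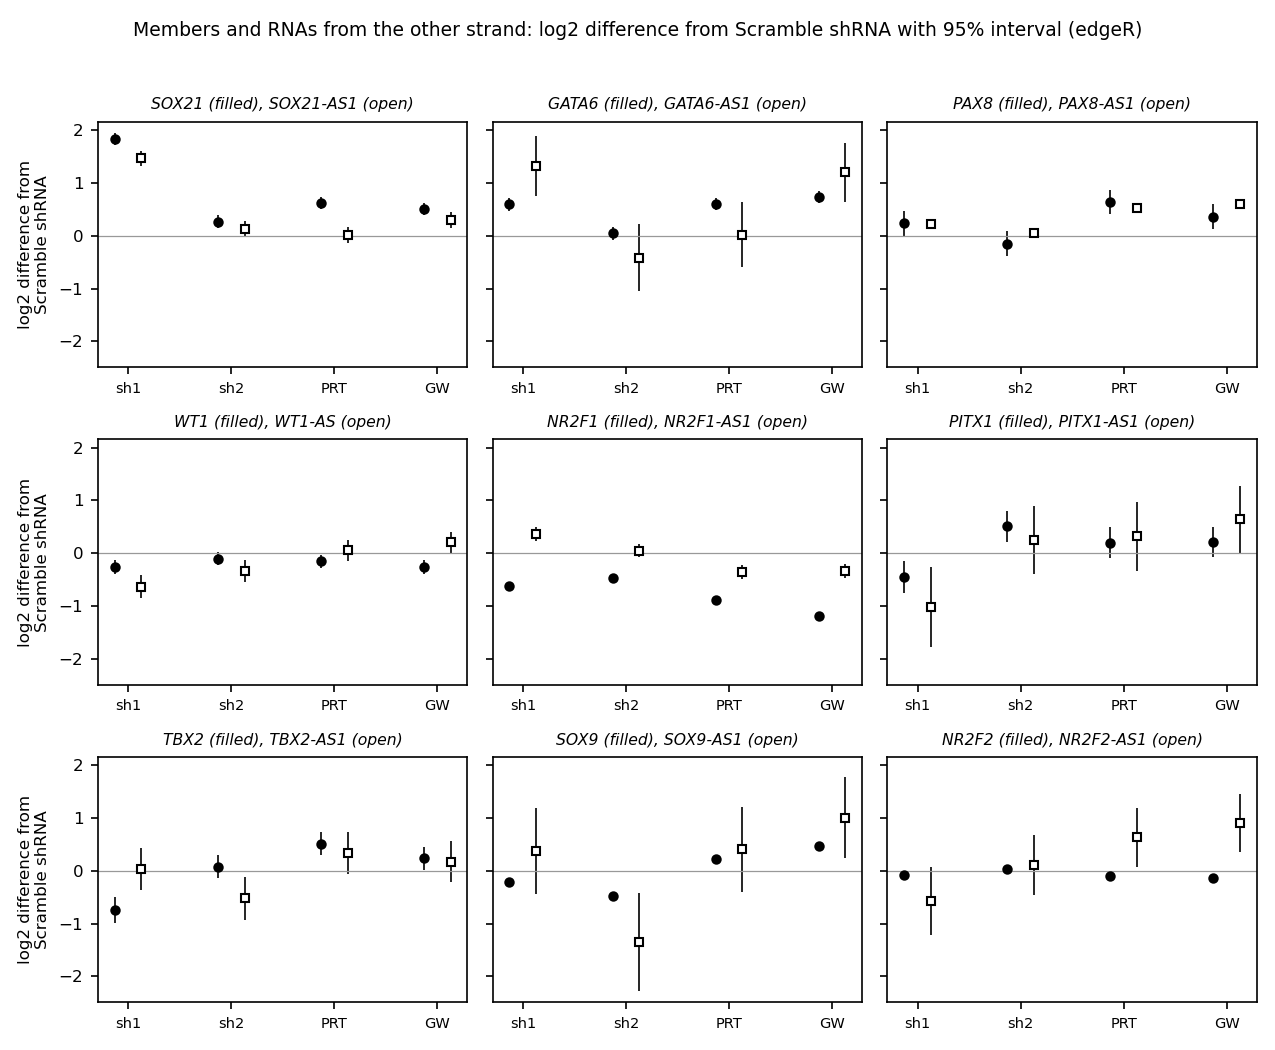
Log2 differences from Scramble with 95% intervals (y axes, edgeR) for 9 members (filled circles) and their other-strand RNAs (open squares) in RNF2 shRNA1 (sh1), RNF2 shRNA2 (sh2), PRT4165 (PRT) and GW-516 (GW) (x axes). SOX21 and SOX21-AS1 rise together in RNF2 shRNA1, at 1.83 and 1.46, whereas NR2F1 and NR2F1-AS1 lie on opposite sides of 0 there, at -0.63 and 0.36.

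Among the 101 paralogues outside the members, 37 were tested. In RNF2 shRNA1 cells 7 were called higher and 10 lower, in the libraries labelled RNF2 shRNA2 2 and 10, with PRT4165 12 and 6, and with GW-516 9 and 4. The share of paralogues called was 45.9% in RNF2 shRNA1 cells (54.7% of all genes), 32.4% in the libraries labelled RNF2 shRNA2 (42.1%), 48.6% with PRT4165 (41.6%) and 35.1% with GW-516 (55.5%). FOXA1, a pioneer factor closely related to FOXA2, fell in RNF2 shRNA1 cells (log2 -0.48, adjusted p = 4.7e-11 by edgeR), in the libraries labelled RNF2 shRNA2 (log2 -0.33, adjusted p = 5.1e-08 by edgeR), with PRT4165 (log2 -0.79, adjusted p = 1.1e-14 by edgeR) and with GW-516 (log2 -0.77, adjusted p = 7.1e-15 by edgeR). FOXA2 was called lower in none of these comparisons. RUNX2, the bone counterpart of RUNX1, rose in RNF2 shRNA1 cells (log2 0.98, SE 0.076, adjusted p = 4.9e-11 by edgeR), with PRT4165 (log2 0.66, SE 0.076, adjusted p = 1.3e-07 by edgeR) and with GW-516 (log2 0.66, SE 0.075, adjusted p = 4.6e-08 by edgeR). The libraries labelled RNF2 shRNA2 had less RUNX2 than RNF2 shRNA1 cells (log2 -1.13, SE 0.075, adjusted p = 2.1e-12 by edgeR). DLX3, a Distal-less factor of epidermis and tooth, fell in RNF2 shRNA1 cells (log2 -1.53, SE 0.12, adjusted p = 4e-11 by edgeR), as DLX1 did. SOX7 rose with PRT4165 (log2 0.66, SE 0.063, adjusted p = 4.4e-09 by edgeR) and GW-516 (log2 0.46, SE 0.063, adjusted p = 9.6e-07 by edgeR). SOX7 was called lower in RNF2 shRNA1 cells (log2 -0.20, adjusted p = 0.014 by edgeR) and in the libraries labelled RNF2 shRNA2 (log2 -0.19, adjusted p = 0.018 by edgeR).

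Among the Polycomb subunit genes themselves some were called in each comparison. Of 26 tested genes of Polycomb repressive complex 1, 4 were higher and 13 lower in RNF2 shRNA1 cells, 9 and 7 in the libraries labelled RNF2 shRNA2, 4 and 9 with PRT4165, and 5 and 14 with GW-516. The share called was 65.4% in RNF2 shRNA1 cells (54.7% of all genes), 61.5% in the libraries labelled RNF2 shRNA2 (42.1%), 50% with PRT4165 (41.6%) and 73.1% with GW-516 (55.5%). Besides RNF2, BCOR and PCGF6, subunits of variant forms, fell in RNF2 shRNA1 cells (log2 -0.62, SE 0.036, adjusted p = 3.3e-13 by edgeR for BCOR and log2 -0.90, SE 0.065, adjusted p = 1.5e-11 by edgeR for PCGF6). Of 12 genes of Polycomb repressive complex 2, 5 were higher and 5 lower in RNF2 shRNA1 cells, 2 and 3 in the libraries labelled RNF2 shRNA2, 3 and 5 with PRT4165, and 2 and 7 with GW-516, or 83.3%, 41.7%, 66.7% and 75% called in these comparisons. No test was made of either list against other genes. EZH2, its catalytic subunit, fell with PRT4165 (log2 -0.45, SE 0.041, adjusted p = 2.3e-09 by edgeR) and GW-516 (log2 -0.54, SE 0.04, adjusted p = 3.3e-11 by edgeR), and EZH1, the alternative catalytic subunit, rose in RNF2 shRNA1 cells (log2 0.69, SE 0.06, adjusted p = 3.9e-10 by edgeR). The part of these changes in the levels of the developmental factors was not tested.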

How the data were processed

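Raw gene counts were deposited by the authors in 1 table per library, with no normalization. Per the file headers they were made with featureCounts 1.4.3-p1, strand option 2 and GENCODE 18 genes, with no option for read pairs, so both ends of a fragment were counted. The submitters' processing notes name hg19 (GRCh37) as build, and STAR and DESeq2 1.8.1 as tools without their roles and with no version of STAR. Totals were 65877850 to 108380198 counts per library, and intervals on levels cover counting error only.

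Identifiers were matched to symbols through GENCODE 29 and RefSeq tables, which named 51488 of 57445. Genes were tested with edgeR 4.0.16 in R 4.3.3, with TMM, filterByExpr at a minimum count of 10 and 1 coefficient per group over 10 libraries (5 residual degrees of freedom), by robust quasi-likelihood F tests, two-sided, with Benjamini-Hochberg adjustment over the 18478 genes of each of the 6 comparisons. On counts simulated for RNF2 shRNA1 against Scramble (17860 genes passed the filter), the fit called 99 of 100 genes changed by 1 and 86 of 100 changed by 0.5 on the log2 scale, and 29 of 17660 unchanged ones. The changed genes had a mean of at least 1 CPM, and each gene was given the same spread in every group. The real pairs differ in spread and count both ends, so these rates may not hold for the real libraries or for lower genes. CPM are TMM-normalized, and RPKM divides them by exon length. Alternatives were RLE factors, DESeq2 1.42.0, no filter, the compared groups by themselves, a block on replicate number, each library left out, near-identical pairs summed, no RNF2 shRNA2 libraries, a 2-fold minimum and other level limits.

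The members and lists were chosen with earlier results of these data known. All 47 members are named, with RNF2 and BMI1 as checks of the labels (other checks of the cell line are not reported here); from each list of paralogues, other-strand RNAs and Polycomb subunits, the genes named in a comparison are among the 4 with the smallest adjusted p, and for other-strand RNAs also those of all expressed partners, which were chosen after their values were seen. Of the list entries 10 matched no identifier. Tabulation and plotting used Python 3.11.15, pandas 2.3.3, numpy 2.4.6 and matplotlib 3.10.9.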

Additional observations from a re-analysis of the deposited data

Results flagged for a closer look

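Of the 39 tested members, 26 differed directly between the libraries labelled RNF2 shRNA2 and RNF2 shRNA1 cells, each by edgeR's test of the difference between the hairpin groups (adjusted p below 0.05). Over all genes tested 59.2% were called in this comparison, so the count by itself is no result about the members. Against Scramble, RNF2 itself was called lower only in RNF2 shRNA1 cells. Values are log2 differences of the libraries labelled RNF2 shRNA2 over RNF2 shRNA1 cells.

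Among the largest were SOX21 at -1.56, SOX2 at 1.49, PITX1 at 0.96, EBF1 at -0.84, TBX2 at 0.82, MSX2 at 0.79 and DLX1 at 0.63. Lower in the libraries labelled RNF2 shRNA2 were also GATA6 at -0.55, SIX4 at -0.52, TFAP2A at -0.46, FOXL1 at -0.45, PAX9 at -0.32, SOX9 at -0.26 and SOX13 at -0.17. Higher there were also MEIS1 at 0.48, MEIS2 at 0.47, RUNX1 at 0.38 and TBX3 at 0.31. These 18 were called under each alternative run other than the 2-fold minimum, which kept SOX21, SOX2 and FOXD1 of the 26.

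The other 8 were lost under at least 1 alternative. FOXD1, at 1.54, rests on at most 28 counts a library, and its call was lost without RNF2 shRNA1 replicate 2 (adjusted p = 0.32 by edgeR), RNF2 shRNA2 replicate 1 (0.081) or 2 (0.09), or GW-516 replicate 1 (0.055) or 2 (0.054). GATA3, at 0.33, was lost without RNF2 shRNA1 replicate 2 (adjusted p = 0.079 by edgeR) or RNF2 shRNA2 replicate 2 (0.094). PAX8, at -0.38, was lost without RNF2 shRNA1 replicate 1 (adjusted p = 0.19 by edgeR). ZIC2, at 0.37, was lost without RNF2 shRNA1 replicate 1 (adjusted p = 0.16 by edgeR) or RNF2 shRNA2 replicate 2 (0.17). FOXA2, at 0.17, was lost without RNF2 shRNA1 replicate 1 (adjusted p = 0.086 by edgeR) or 2 (0.095), or RNF2 shRNA2 replicate 1 (0.42). NR2F2, at 0.12, was lost without RNF2 shRNA1 replicate 2 (adjusted p = 0.098 by edgeR) or RNF2 shRNA2 replicate 2 (0.07). WT1, at 0.16, was lost without any of 6 libraries, which were Scramble replicate 1, both of RNF2 shRNA1, RNF2 shRNA2 replicate 2 and both of GW-516 (edgeR adjusted p 0.061 to 0.31). NR2F1, at 0.17, was lost with the near-identical pairs summed (adjusted p = 0.053 by edgeR). In each of these cases the cause was not tested.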

How the results depend on the processing

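Of the recomputed member differences none changed sign against a call, 160 lost a call and 1871 kept one, while 95 gained a call and 1774 stayed without one (the 2-fold minimum not included). The counts of silent (8) and expressed (35) members moved little when 1 library was left out, to 8 to 8 silent and 34 to 35 expressed. The expressed count depended more on the level measure. With the same limits set on RPKM in place of CPM, 27 were expressed and 9 silent. A limit of 2 CPM gave 31 expressed, and a limit of 0.5 CPM gave 36.

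The count lower with PRT4165, 5, moved most often by over 1.5 times: it was 3 with RLE factors, 2 with no filter, 2 in the groups alone, 3 with DESeq2, 2 without Scramble replicate 1, GW-516 replicate 1 or GW-516 replicate 2, and 3 without Scramble replicate 2 or RNF2 shRNA1 replicate 2; the cause was not tested. The count lower between the compounds, 7, was 4 without GW-516 replicate 1 and 3 without GW-516 replicate 2. With the near-identical pairs summed, 9 were lower in RNF2 shRNA1 cells, 5 higher in the libraries labelled RNF2 shRNA2, 2 lower with PRT4165, 9 higher in the libraries labelled RNF2 shRNA2 than in RNF2 shRNA1 cells, and 3 higher and 3 lower with GW-516 than with PRT4165. That setting tests 7 samples in place of 10, with 2 residual degrees of freedom. Every member call against Scramble that was lost without a single library was lost with pairs summed as well. Those of PITX1, TBX3, MEIS2, SIX2, SIX4, PAX8, MSX1 and DLX2 are among them. A 2-fold minimum, which by construction removes small changes, left 1 higher and 3 lower in RNF2 shRNA1 cells, 1 and 2 in the libraries labelled RNF2 shRNA2, 0 and 1 with PRT4165, 1 and 2 with GW-516, 2 and 1 between the hairpin groups, and 0 and 0 between the compounds. Without that minimum edgeR gave 15 higher with PRT4165 and 7 and 7 between the compounds, and DESeq2 15 and 7 and 5.

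Leaving out 1 library in turn gave 7 to 10 higher and 11 to 17 lower in RNF2 shRNA1 cells, 7 to 11 and 7 to 8 in the libraries labelled RNF2 shRNA2, 14 to 16 and 2 to 5 with PRT4165, 12 to 17 and 7 to 7 with GW-516, 11 to 17 and 9 to 11 between the hairpin groups, and 5 to 8 and 3 to 8 between the compounds. A group left with 1 library was assumed to vary like the others. The replicate numbers do not pair the samples (correlations of deviations from -0.015 to 0.0102), and with replicate number as a block RNF2 shRNA1 cells gave 8 higher and 15 lower.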
